A study of Bos taurus with 30 samples.

Results

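The cytosolic ribosomal proteins were represented on a bovine array by 58 of 8073 named genes, and by 63 of 13824 probes. A probe was a member where its annotated gene symbol starts with RPL or RPS followed by a digit, or by P and a digit, or is RPSA, with the RPS6K kinases left out. The 63 probes comprised 34 for 33 genes of the large subunit, 25 for 23 genes of the small subunit, 2 for genes that carry such a symbol without being ribosomal proteins (RPS19BP1 and RPL7L1) and 2 annotated to both RPS27 and FGB, which were counted but are not named further. All 58 named genes had a gene ID in the bovine RefSeq table, and all 63 probes passed the filter on missing values. The members were chosen by name and not by their values.

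Ribosomes translate messenger RNA into protein. Each is built from a small subunit, which decodes the message, and a large subunit, which joins amino acids, and each subunit holds ribosomal RNA and many ribosomal proteins. The messenger RNAs of these proteins share a terminal oligopyrimidine tract at their start, through which mTOR signalling adjusts their translation, and they are among the most abundant in growing cells. The lining of the pregnant ruminant uterus has caruncles, gland-free knobs where the placenta attaches, and intercaruncular tissue between them, which carries the glands that feed the conceptus.

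RNA of the 2 kinds of endometrium from pregnant cows was hybridised together on 30 arrays with 2 colours, with 2 arrays for each of 15 animals. The groups were pregnancies from somatic cell nuclear transfer (SCNT, the method of cloning), pregnancies after transfer of an embryo made by in vitro fertilisation (IVF-ET) and pregnancies from artificial insemination (AI), with 5 cows each. The labels used here give no breed, stage of pregnancy or donor line for any group. IVF-ET replicate 3 was left out of the values given here, since its arrays carried the same dye orientation and correlated at r = -0.317 over all probes, which leaves 14 animals. All values below are log ratios of the 2 tissues of an animal, taken as log2, after each array was centred on its median and the 2 arrays of the animal were averaged.

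3 properties of the ratio bear on every value. The labels do not say which tissue is the numerator, so values are given as the positive or negative side of the deposited ratio. The values were read as already turned to the tissues. Read instead as plain dye ratios, the arrays of an animal are subtracted and not averaged, and the result can differ in size and sign. The mean AI profile opposed the others over 13818 probes (r = -0.293 with SCNT and r = -0.271 with IVF-ET, against r = 0.455 between SCNT and IVF-ET), so comparisons with AI are given as deposited and, where they matter, with the AI sign turned. Single AI arrays were split. Both arrays of AI replicate 5 (r = 0.185 and 0.143) and the first of replicate 1 (r = 0.467) correlated positively with the mean SCNT profile. The other AI arrays lay between r = -0.563 and -0.059. Agreement between the 2 arrays of an animal was weak in 13 animals. Over all tested probes it lay between r = -0.055 and 0.422 in them, and at r = 0.790 in SCNT replicate 5. Over member probes it lay between r = -0.172 and 0.385 in the same 13 animals, and at r = 0.925 in SCNT replicate 5. That animal stood apart, and its influence is given for many of the results but not for all.

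Ribosomal protein probes lay mostly on the negative side in SCNT and IVF-ET pregnancies and were spread over both sides in AI pregnancies. Of 63 members, 53 had a mean below 0 in SCNT animals, 53 in IVF-ET animals and 26 in AI animals, where over all tested probes 50.2%, 49.7% and 47.9% did so. The median of the members' means was -0.17 in SCNT, -0.13 in IVF-ET and 0.03 in AI animals, beside medians over all tested probes of -0.000475 in SCNT and 0.00113 in IVF-ET animals. The shift was small in each group. In SCNT animals without replicate 5 the median was -0.14, with 50 of 63 members below 0. Read as dye ratios, the medians were 0.09 in SCNT and 0.02 in IVF-ET animals.

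The shift was present in most single animals of the transferred-embryo groups. The median over members was -0.15, -0.21, 0.04, -0.14 and -0.27 in SCNT replicates 1 to 5. It was -0.10, -0.22, -0.14 and -0.10 in IVF-ET replicates 1, 2, 4 and 5. In AI replicates 1 to 5 it was -0.05, 0.07, 0.05, 0.15 and -0.02. All 4 IVF-ET animals and 4 of 5 SCNT animals lay below 0, and SCNT replicate 3 overlapped the AI range. The animal medians averaged -0.15 ± 0.12 in SCNT (SD, n = 5), -0.14 ± 0.06 in IVF-ET (n = 4) and 0.04 ± 0.08 in AI animals (n = 5). The large subunit averaged -0.21 ± 0.20 in SCNT, -0.14 ± 0.06 in IVF-ET and 0.04 ± 0.08 in AI animals, and the small subunit -0.14 ± 0.15, -0.15 ± 0.08 and 0.04 ± 0.08 in the same 3 groups. Without replicate 5 the SCNT averages were -0.13 for the large and -0.13 for the small subunit. In SCNT replicate 5 the large subunit was at -0.53 and the small at -0.21, and in SCNT replicate 2 they were at -0.19 and -0.34.

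**Figure D1:**
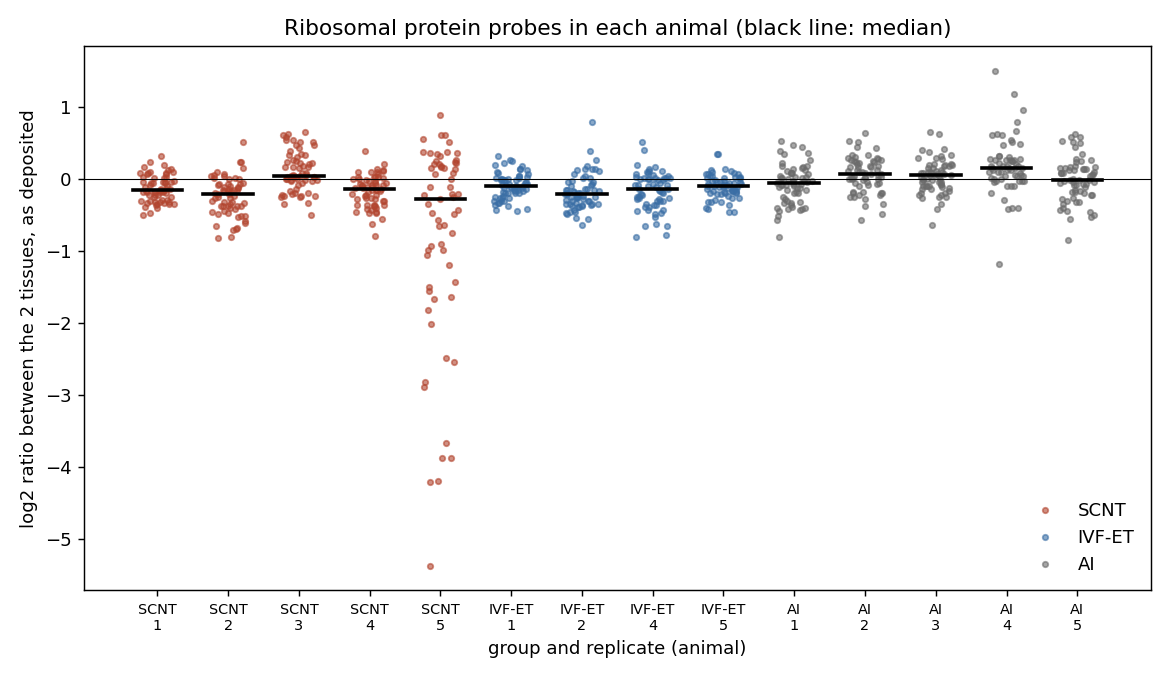
Each point is 1 of 63 ribosomal protein probes in 1 animal (SCNT, then IVF-ET, then AI), as the log2 ratio between the tissues, and the black line is the animal's median. SCNT replicate 5 reaches -5.38, while the members of the other 13 animals stay between -1.18 and 1.50.

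**Figure D2:**
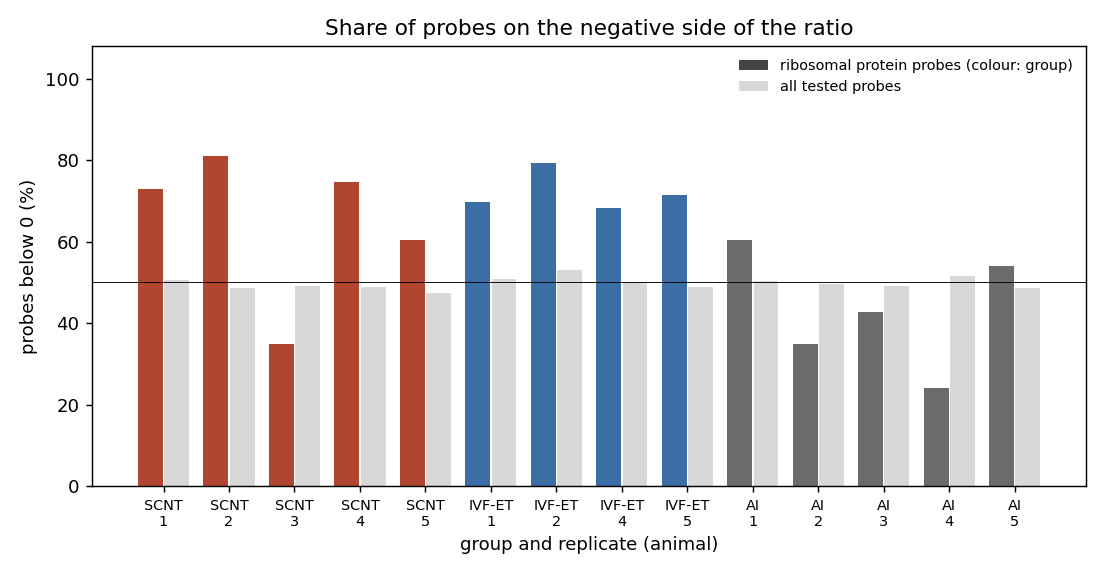
Coloured bars give the percentage of ribosomal protein probes below 0 in each animal, and grey bars the same for all tested probes. The 4 IVF-ET animals lie between 68.3% and 79.4%, and the AI animals between 24.2% and 60.3%, against grey bars near 50%.

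In IVF-ET pregnancies 22 of 63 members were negative in every animal, 34.9% of them against 11% of all tested probes, and 0 were positive in every animal, against 10.9%. The 22 comprised 11 of the large subunit, such as RPL3, RPL7A, RPL9 and RPL37, and 11 of the small subunit, such as RPS6, RPS24 and RPS25. In SCNT pregnancies 7 members were negative in every animal (11.1%, against 6.98% of all tested probes) and 2 were positive (3.17%, against 7.37%). The 2 positive ones were 1 probe of RPS14 and RPS27L. Without SCNT replicate 5 these counts were 12 and 3, against 11.6% and 12% of all tested probes. In AI pregnancies 2 members were negative throughout (RPL37 and RPS15A, against 2.21% of all tested probes) and 4 positive (RPL23, RPL35A, RPS18 and RPL10, against 2.74%).

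The first comparison asks whether any single ribosomal protein gene differed between caruncle and intercaruncle in SCNT pregnancies. With limma, 0 of 63 members passed an adjusted p of 0.05 in SCNT animals, where 1.82% of all tested probes passed. At an unadjusted p under 0.05 there were 17 members, 16 negative and 1 positive, or 27.0% of members beside 14.8% of all tested probes. Those with the smallest p were the large-subunit proteins RPL14, RPL7A, RPL9 and RPL15 and the small-subunit protein RPS10, with adjusted p between 0.0869 and 0.169. Without SCNT replicate 5, 0 members passed, where 1.61% of all tested probes passed, and 11 members (10 negative and 1 positive) were at an unadjusted p under 0.05, beside 12.3% of all tested probes.

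RPL14 (gene ID 539373) was at -0.41, -0.38, 0.04, -0.37 and -1.55 in SCNT replicates 1 to 5, at -0.15, -0.38, -0.36 and -0.24 in the IVF-ET animals, and at 0.08, -0.25, 0.08, 0.15 and -0.05 in the AI animals. Its SCNT mean was -0.54 ± 0.15 (SE from limma, adjusted p = 0.0869) and -0.28 without replicate 5. SCNT replicate 5 was the lowest of all 14 animals, and the IVF-ET and AI values overlapped. RPL7A (513128) was at -0.25, -0.15, -0.21, -0.37 and -0.93 in SCNT animals and at -0.18, -0.27, -0.43 and -0.46 in IVF-ET animals. In AI animals it was at -0.40, 0.17, 0.19, 0.19 and -0.16. All 9 SCNT and IVF-ET values were negative, and 2 AI animals lay in their range. The mean was -0.38 ± 0.11 in SCNT animals (SE, limma adjusted p = 0.1), and leaving out replicate 5 gave -0.25.

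RPL9 (282884), a protein near the base of the large subunit's stalk, was negative in the same 9 animals. It was at -0.33, -0.38, -0.17, -0.44 and -2.50 in SCNT animals, at -0.44, -0.35, -0.78 and -0.41 in IVF-ET animals and at -0.52, -0.26, 0.06, 0.60 and 0.13 in AI animals. Its IVF-ET mean of -0.49 ± 0.19 (SD, n = 4) was the lowest of any member in that group, and the AI animals fell on both sides. RPL15 (507151) was at -0.35, -0.44, -0.22, -0.08 and -2.82 in SCNT animals, at -0.12, -0.56, -0.14 and -0.17 in IVF-ET animals, and between -0.01 and 0.18 in the AI animals. The AI values did not overlap either other group, and SCNT replicate 5 lay far below the other SCNT animals. Without replicate 5 the SCNT mean of RPL15 was -0.27 in place of -0.78.

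SCNT replicate 5 stood apart over all probes, and not only within the ribosomal proteins. The SD over all tested probes was 0.70 in that animal, and between 0.22 and 0.32 in the other animals. Of the probes that are not members, between 0.058% and 0.68% lay below -1 in the other animals. In SCNT replicate 5, 19 of 63 members lay below -1, or 30.2%, beside 7.90% of all other tested probes, and 11 lay below -2, or 17.5% beside 2.42%. The lowest was RPS2, a protein at the messenger RNA entry of the small subunit (286867), at -5.38, a 41.5-fold ratio between the tissues if the base of the logarithm is 2. RPL29 was at -4.21, RPL19 at -4.20, RPS9 at -3.88, RPL28 at -3.88, RPL8 at -3.67, RPL13 at -2.90, RPL18 at -2.55 and RPS21 at -2.02. The other members were not displaced the same way: of the remaining 44, 25 lay above 0, and RPS12 was highest at 0.89. Members of both subunits were in the low set, with 11 large-subunit probes, 7 small-subunit probes and RPS19BP1. The line at -1 was set after these values were seen; RPS3 lay just inside it at -1.05, and RPLP2 and RPL3 just outside it at -0.99 each.

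Of the 19 low probes, 15 lay below -1 on both arrays of the animal, which carried opposite dye orientations, 3 (RPS10, RPSA and RPS3) on the second array only and 1 (RPS19BP1) on the first only. RPS2 was at -4.18 on the first array and -6.57 on the second, RPL29 at -4.80 and -3.62, RPL28 at -3.84 and -3.92, and RPL8 at -3.71 and -3.64. Over all tested probes those arrays correlated at r = 0.790, and over members at r = 0.925. In the other 4 SCNT animals RPS2 lay between -0.46 and -0.16, RPL29 between -0.34 and 0.05, RPL19 between -0.28 and 0.0038, RPS9 between -0.14 and 0.06, RPL28 between -0.38 and 0.39, RPL8 between -0.81 and 0.51, and RPL13 between -0.31 and 0.65.

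The 19 low probes were picked by their values in SCNT replicate 5, so their values there describe that choice. Their median was -2.50 in SCNT replicate 5 against 0.10 for the other 44, whereas in SCNT replicates 1 to 4 it was -0.18, -0.37, 0.0049 and -0.08 against -0.12, -0.21, 0.06 and -0.16. In IVF-ET animals the low set had medians between -0.25 and -0.02, and in AI animals between -0.06 and 0.14. Of the other 13 animals, only AI replicate 4 had a member below -1, at -1.18 for 1 probe of RPS14. If the values are dye ratios, the arrays of SCNT replicate 5 cancel: member values then lay between -0.67 and 1.19, with 0 of 63 below -1, so the low set is seen with the values read as turned to the tissues and not with the other reading.

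**Figure D3:**
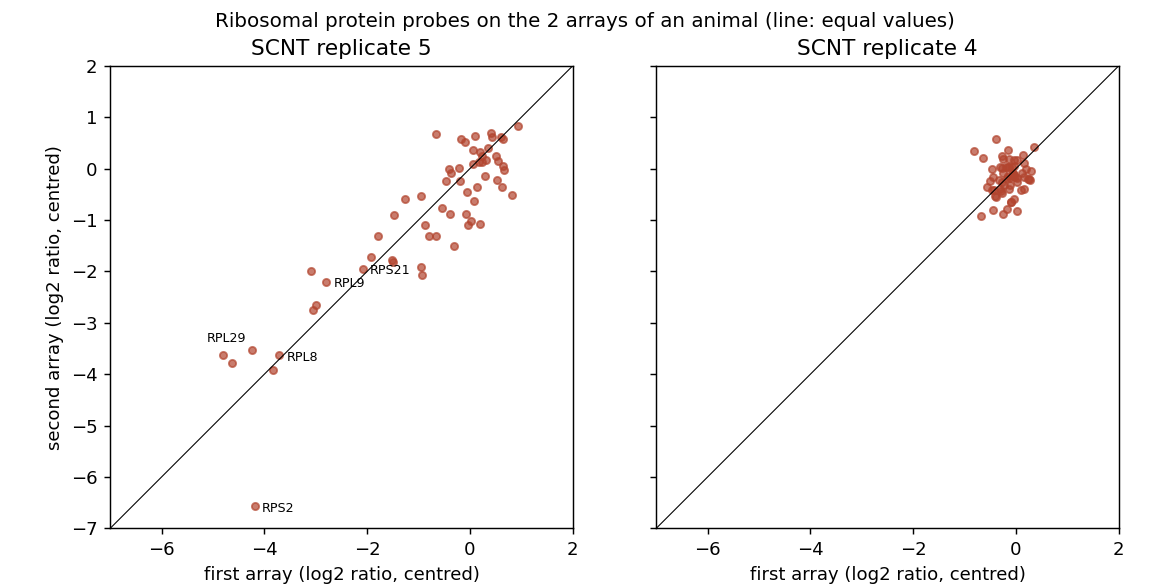
Each point is a ribosomal protein probe, with the centred log2 ratio on the first array of the animal on the horizontal axis and on the second array on the vertical axis, for SCNT replicate 5 (left) and SCNT replicate 4 (right). In replicate 5 the low probes fall along the line of equal values down to RPS2 at -4.18 and -6.57, and in replicate 4 the probes form a cloud around 0.

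Of 37 measured translation factors and other messages of the oligopyrimidine class, 8 lay below -1 in SCNT replicate 5 (21.6%, beside 7.90% of the probes that are not members) and 29 did not. The 8 included EEF1A2, an elongation factor that delivers transfer RNA, at -4.78, EEF1D, an exchange factor for it, at -2.36, EIF5A, an elongation and termination factor, at -1.65, and the small-subunit scaffold RACK1 at -1.51. Of 50 measured genes of ribosome assembly, 3 lay below -1 (6%, below that share), the lowest being TCOF1 at -1.61, and of 63 mitochondrial ribosomal proteins, 8 did (12.7%). Of 13 stromal markers 5 lay below -1 in that animal (38.5%), the lowest being COL3A1 at -3.79, while their median was -0.26, the nearest to 0 among the SCNT animals. Of 10 epithelial markers 1 lay below -1. Whether the marker ratios move with the ribosomal protein values was not tested.

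The IVF-ET animals gave no call. With limma, 0 of 63 members passed, as did 0% of all tested probes, and 7 members had an unadjusted p under 0.05, all negative, where 7.95% of all tested probes did so. They were RPL7A, RPL37, RPL4, RPS6, RPS25, RPS20 and RPS24, with limma means between -0.34 and -0.26. The fit shares its spread over the groups, so SCNT replicate 5 also bears on the p of the other groups. Fitted without that animal, 14 members had an unadjusted limma p under 0.05 in IVF-ET animals, all negative. These were 22.2% of members beside 11.1% of all tested probes, and 0 members passed. RPL4 (510547), which lines the tunnel through which the new protein leaves, was at -0.06, -0.64, -0.66 and 0.02 in IVF-ET animals. In SCNT animals it was at -0.31, -0.20, 0.03, -0.22 and 0.24, and in AI animals at -0.04, 0.44, -0.35, -0.30 and -0.28, so the groups overlapped. RPL37 (768317) was negative in all IVF-ET and all AI animals, at -0.26, -0.54, -0.27 and -0.18 in IVF-ET and at -0.45, -0.20, -0.26, -0.10 and -0.45 in AI animals. It was at -0.32, -0.69, 0.30, -0.18 and -0.23 in SCNT animals. The adjusted p of RPL7A, the smallest among members, was 0.503.

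In AI pregnancies 0 of 63 members passed with limma, as did 0% of all tested probes. At an unadjusted p under 0.05 there were 7 members, 6 positive and 1 negative, where 4.37% of all tested probes did so. The positive ones were led by RPS18 (0.42 ± 0.10, SE), RPL23 (0.42 ± 0.13), RPS3A (0.43 ± 0.14) and RPL35A (0.47 ± 0.17), each with a limma adjusted p of 1.00. With the sign of the AI group turned, these 6 lie on the negative side by construction, since they were picked as positive. The median over all 63 members is then -0.03 in AI animals. Fitted without SCNT replicate 5, which shares in the spread, 13 members had an unadjusted limma p under 0.05, 10 positive and 3 negative. These were 20.6% of members beside 6.80% of all tested probes, and 0 members passed. The calls over all tested probes depended on the reading of the ratio. Read as turned to the tissues, 252 passed in SCNT and 0 in AI animals. Read as dye ratios, more than those 252 passed in AI animals, against 0 in SCNT and 1 in IVF-ET animals. Members past the threshold stayed at 0 in each group. Whether 1 reading holds for all groups was not tested, which also bears on the comparisons with AI.

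The next comparisons ask whether the ratio of the tissues differed between the kinds of pregnancy. Both comparisons with AI use the same AI animals. Between SCNT and AI pregnancies, 1 of 63 members passed with limma, where 0.948% of all tested probes passed, so the member count is near the background. The gene was RPS18, a protein of the small subunit's head whose message is often used as a reference transcript. RPS18 (326602) was at 0.07, -0.61, 0.0028, -0.12 and -0.44 in SCNT animals, at -0.10, 0.13, 0.02 and 0.02 in IVF-ET animals and at 0.37, 0.23, 0.29, 0.61 and 0.59 in AI animals. All 5 AI animals lay above every SCNT and IVF-ET animal. SCNT minus AI was -0.64 ± 0.14 (SE, limma adjusted p = 0.0416).

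The call on RPS18 was close to the threshold. It was kept under 12 of 29 alternative settings, and under all settings except the 2 that change the sign its adjusted p lay between 0.0224 and 0.133 with limma. With the AI sign turned the difference was 0.20, and read as dye ratios it was 0.0013. Leaving out SCNT replicate 5 gave -0.58 (limma adjusted p = 0.0453), and RPS18 was again the 1 member called, where 1.74% of all tested probes were, whereas leaving out AI replicate 4 gave -0.59 (limma adjusted p = 0.133). Single arrays of an AI animal also disagreed: AI replicate 5 had -0.38 on its first array and 1.55 on its second, and AI replicate 2 had 0.60 and -0.14. AI replicate 4 had 0.65 and 0.57.

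At an unadjusted p under 0.05, 14 members differed between SCNT and AI animals, all lower in SCNT, or 22.2% beside 12.9% of all tested probes. Without SCNT replicate 5 there were 15 members, 14 lower and 1 higher, or 23.8% beside 13.3%. RPL23 (504876), a large-subunit protein that also binds the p53 regulator MDM2, was at 0.02, -0.17, -0.09, -0.40 and -0.90 in SCNT animals and at 0.35, 0.31, 0.05, 0.80 and 0.62 in AI animals. In IVF-ET animals it was at 0.13, -0.16, -0.39 and 0.11. Its SCNT and AI values did not overlap, and the difference was -0.73 ± 0.18 (limma adjusted p = 0.0749). Without SCNT replicate 5 it was -0.58 (limma adjusted p = 0.0715). RPL35A (506768), mutated in some human patients with Diamond-Blackfan anaemia, was at 0.12, -0.82, 0.04, -0.48 and -0.57 in SCNT animals, at -0.42, -0.22, -0.37 and -0.20 in IVF-ET animals and at 0.12, 0.33, 0.03, 1.50 and 0.35 in AI animals. The difference was -0.81 ± 0.24 (limma adjusted p = 0.137), and -0.55 without AI replicate 4 (limma adjusted p = 0.265). Without SCNT replicate 5 it was -0.75 (limma adjusted p = 0.151). The AI replicate 4 values of RPL23 and RPL35A come from 1 array each, since the other array had no value. In that animal this also holds for RPS2, RPS25, RPL3 and RPS24, among other members. In total 4 members had groups that did not overlap with SCNT lower, RPL23, RPS18, RPS2 and RPL15, against 1.65% of all tested probes, and 0 had SCNT higher, against 1.19%.

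Between IVF-ET and AI pregnancies 0 of 63 members passed with limma, where 0.0579% of all tested probes passed. At an unadjusted p under 0.05 there were 10 members, all lower in IVF-ET, or 15.9% beside 8.37% of all tested probes. Fitted without SCNT replicate 5 there were 17, all lower in IVF-ET, or 27.0% beside 11.7%, and 0 members passed. RPS25 (282052), which some viral and cellular messages need for internal initiation, was at -0.34, -0.31, -0.43 and -0.04 in IVF-ET animals and at -0.07, 0.51, 0.07, 0.49 and 0.25 in AI animals, a difference of -0.53 ± 0.16 (limma adjusted p = 0.316). Its SCNT values were 0.01, -0.53, 0.08, -0.36 and -0.48. RPS3A (282053) was at -0.16, -0.24, -0.53 and -0.09 in IVF-ET animals and at 0.17, 0.33, -0.12, 1.19 and 0.58 in AI animals, where again replicate 4 was highest. The difference was -0.69 ± 0.21 (limma adjusted p = 0.326). In SCNT animals it was at -0.23, -0.32, -0.0025, -0.47 and 0.16.

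RPS6 (787914), the ribosomal protein that S6 kinase phosphorylates when mTOR is active, was at -0.38, -0.49, -0.31 and -0.18 in IVF-ET animals and at 0.44, 0.16, 0.11, 0.48 and -0.01 in AI animals. Those groups did not overlap, and the difference was -0.57 ± 0.19 (limma adjusted p = 0.376). In SCNT animals it was at -0.36, -0.49, 0.33, -0.56 and 0.35, on both sides of 0. Of the 6 members whose IVF-ET values all lay below the AI values (against 1.85% of all tested probes), the others were RPL35A, RPL3, RPS18, RPS24 and RPL15, and 0 members lay the other way (against 1.49%). RPL15 and RPS18 were also among the 4 without overlap between SCNT and AI, a comparison that shares the AI animals.

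**Figure D4:**
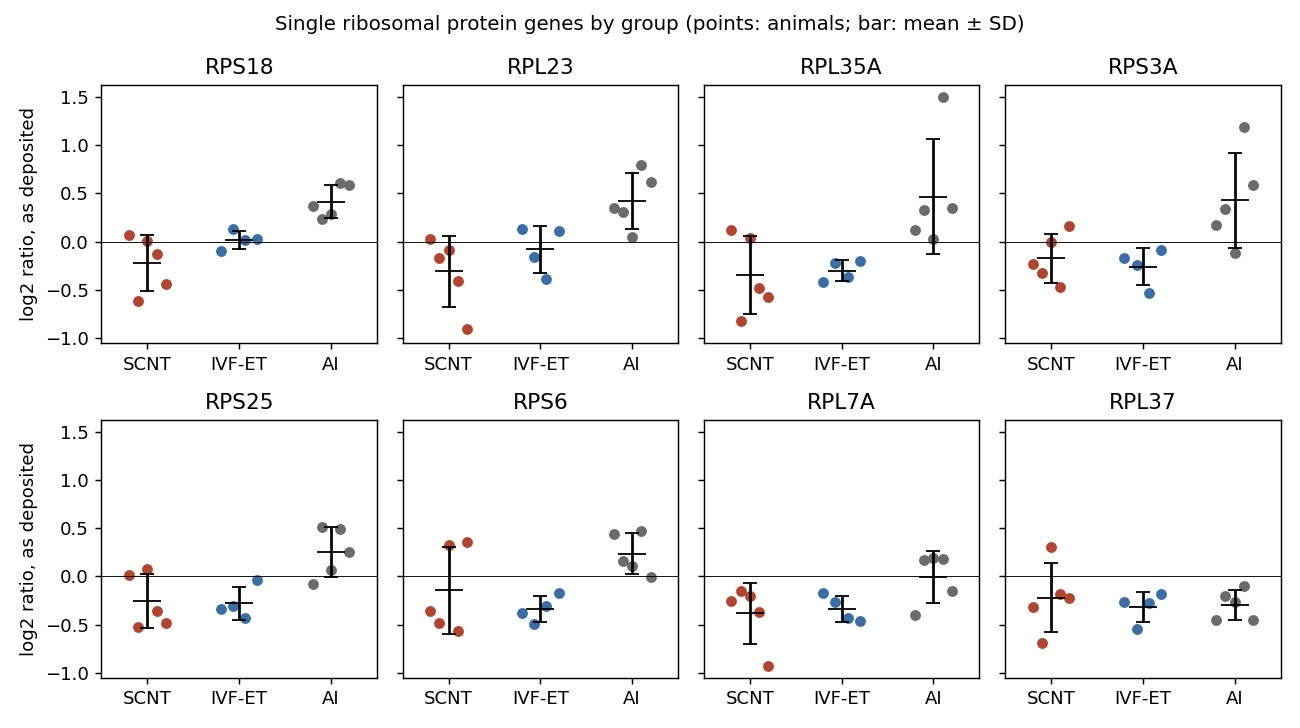
Points are animals and bars the mean ± SD of 8 ribosomal protein genes in SCNT, IVF-ET and AI pregnancies, as log2 ratios between the tissues. The AI points of RPS18 lie between 0.23 and 0.61, above all points of the other groups, while RPL37 lies below 0 in all IVF-ET and AI animals.

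Between SCNT and IVF-ET pregnancies 0 of 63 members passed with limma, and 0% of all tested probes. No member had an unadjusted p under 0.05, where 4.41% of all tested probes did so. Nor did any member have groups that do not overlap, beside 1.14% of all tested probes with SCNT lower and 1.11% with SCNT higher. The smallest p belonged to RPL18 (-0.65 ± 0.37, SE), RPS18 (-0.24 ± 0.15) and RPS28 (0.28 ± 0.18), each with a limma adjusted p of 0.915. RPL18 (509163) was at -0.25, -0.06, -0.25, -0.15 and -2.55 in SCNT animals and at -0.12, -0.10, 0.20 and 0.02 in IVF-ET animals, and its difference was -0.18 without SCNT replicate 5. RPS28 (282877) was at 0.08, 0.51, 0.26, -0.15 and 0.07 in SCNT animals and at -0.26, 0.13, -0.49 and 0.08 in IVF-ET animals. Over members, the SCNT and IVF-ET means correlated at r = 0.147 with all animals and at r = 0.608 without SCNT replicate 5. Over all 13818 probes the same correlations were 0.455 and 0.617. These are descriptions across probes, which are not independent replicates.

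**Figure D5:**
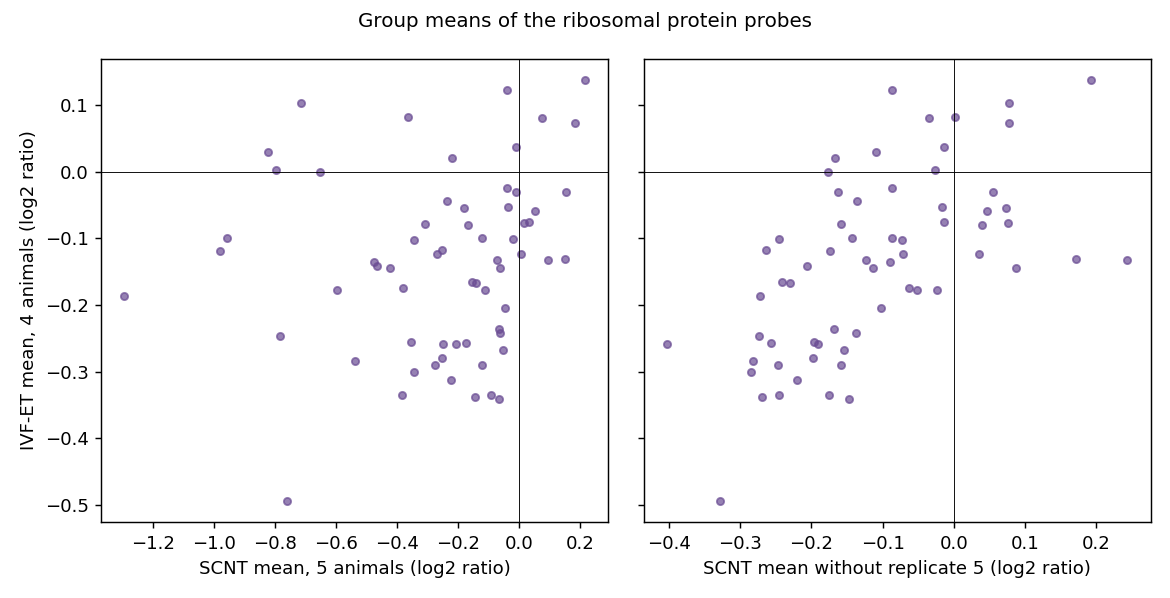
Each point is a ribosomal protein probe, with its mean in 4 IVF-ET animals on the vertical axis and its SCNT mean on the horizontal axis, for all 5 SCNT animals (left) and without replicate 5 (right), in log2 ratio. The correlation over members is 0.147 on the left and 0.608 on the right, and the horizontal axes differ in range.

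Members with a special place in the ribosome, or in common use as reference transcripts, gave no call apart from RPS18. The acidic stalk proteins RPLP1 (533285) and RPLP2 (286853), which recruit the elongation factors, had means of 0.10 ± 0.39 and -0.17 ± 0.50 in SCNT animals (SD, n = 5), of -0.13 ± 0.20 and -0.08 ± 0.09 in IVF-ET animals (n = 4) and of -0.12 ± 0.16 and -0.06 ± 0.16 in AI animals (n = 5). Without SCNT replicate 5 the SCNT means of RPLP1 and RPLP2 were 0.24 and 0.04, and that of RPLP1 had an unadjusted limma p of 0.029 and an adjusted p of 0.313. RPL3 (282688), which reaches toward the peptidyl transferase centre, was at -0.36 ± 0.43 in SCNT, -0.26 ± 0.11 in IVF-ET and 0.18 ± 0.29 in AI animals, and at -0.20 in SCNT animals without replicate 5. RPL10 (286790), which joins the large subunit late in its assembly, was at -0.36 ± 0.83 in SCNT, 0.08 ± 0.24 in IVF-ET and 0.21 ± 0.23 in AI animals (n = 4 there). The SCNT mean of RPL10 rests on replicate 5, at -1.82, with the other 4 between -0.17 and 0.22.

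Among reference transcripts, RPL13A (767925) was at -0.28 ± 0.32 in SCNT, -0.29 ± 0.27 in IVF-ET and 0.13 ± 0.34 in AI animals, and at -0.16 in SCNT animals without replicate 5. RPL19 (510615) was at -0.98 ± 1.80 in SCNT, -0.12 ± 0.23 in IVF-ET and -0.08 ± 0.29 in AI animals, and RPS9 (533892) at -0.80 ± 1.73 in SCNT, 0.0030 ± 0.19 in IVF-ET and -0.08 ± 0.15 in AI animals. The wide SCNT spread of both came from replicate 5, at -4.20 and -3.88. RPS15A (337888) was at -0.06 ± 0.33 in SCNT, -0.24 ± 0.14 in IVF-ET and -0.21 ± 0.17 in AI animals.

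Among small-subunit proteins with further roles, RPS3 (326588), which lines the messenger RNA entry and also acts in DNA repair, was at -0.27 ± 0.47 in SCNT, -0.12 ± 0.20 in IVF-ET and -0.13 ± 0.31 in AI animals. RPSA (281898), known also as the laminin receptor precursor, was at -0.34 ± 0.66 in SCNT, -0.10 ± 0.17 in IVF-ET and 0.11 ± 0.13 in AI animals. For both, SCNT replicate 5 was the lowest animal, at -1.05 for RPS3 and -1.43 for RPSA.

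RPS27L (614220), a paralogue of RPS27 that p53 induces in human cells, was positive in all 5 SCNT animals, at 0.01, 0.05, 0.15, 0.0034 and 0.56, against -0.18, -0.08, -0.20, -0.10 and 0.07 in AI animals. In IVF-ET animals it was at 0.25, -0.03, -0.23 and -0.11. RPL7L1 (522029), a paralogue of RPL7 that acts in processing of ribosomal RNA, was at -0.06 ± 0.47 in SCNT, -0.14 ± 0.19 in IVF-ET and -0.15 ± 0.15 in AI animals. FAU, which encodes a ubiquitin-like protein fused to the small-subunit protein RPS30, carries another symbol and is no member. It was at -0.20 ± 0.44 in SCNT, -0.08 ± 0.19 in IVF-ET and -0.26 ± 0.37 in AI animals (n = 4 there).

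RPS12, RPL35 and RPS14 had 2 probes each. The RPS14 probes disagreed most, with a median absolute difference of 0.34 over animals and a correlation of r = -0.162 over 14 animals. One gave 0.22 in SCNT, 0.14 in IVF-ET and 0.06 in AI animals, and the other -0.42, -0.14 and -0.44 in the same 3 groups. Without SCNT replicate 5, at -1.66, the SCNT mean of that second probe was -0.11. The probes of RPS12 correlated at r = 0.222 and those of RPL35 at r = 0.029.

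Within the groups many members varied together from animal to animal. After the group means were taken off, a member's correlation with the median of the other members over 14 animals had a median of r = 0.45, and 30 of 63 members were above 0.5 (47.6%). For all other probes the median was r = -0.0023, with 9.17% above 0.5. The animals share their arrays between all probes, so this is given as a description. Without SCNT replicate 5 the median was 0.43, with 38.1% of members and 5.49% of the other probes above 0.5. RPL3 followed the others most closely (r = 0.88), then RPS29 (r = 0.80), while 1 probe of RPS12 (r = -0.51) and RPL38 (r = -0.46) ran against them. Without SCNT replicate 5 that RPS12 probe was at r = 0.02 and RPL38 at r = -0.51, while RPS29 (r = 0.92) and RPL3 (r = 0.84) stayed high. RPS29 was at -0.04, -0.27, 0.51, -0.06 and -0.11 in SCNT animals, highest in replicate 3, as was the median of the members.

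Genes that work with the ribosomal proteins gave few calls, in lists drawn up by function. Of 37 measured translation factors and related messages, 0 passed in SCNT, IVF-ET or AI animals with limma, with list medians of -0.12, -0.08 and 0.02. At an unadjusted p under 0.05 there were 8 on the negative side in SCNT animals, 4 negative and 1 positive in IVF-ET animals and 1 positive in AI animals. Over all tested probes, on both sides, the shares were 14.8% in SCNT, 7.95% in IVF-ET and 4.37% in AI animals. The smallest p in SCNT animals were those of EIF3M and EIF3E, subunits of the factor that loads messages on the small subunit, and of RACK1. EIF3M was at -0.61 ± 0.16 (SE, limma adjusted p = 0.066) in SCNT animals, and at -0.32 in IVF-ET and 0.15 in AI animals. EIF3E was at -0.47 ± 0.13 (limma adjusted p = 0.0862) in SCNT animals, with -0.33 in IVF-ET and 0.05 in AI animals. Both were negative in all 9 SCNT and IVF-ET animals.

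Of 50 measured genes of ribosome assembly, 0 passed in any of the 3 groups, and the list medians were -0.0041 in SCNT, -0.05 in IVF-ET and 0.01 in AI animals. At an unadjusted p under 0.05 there were 6 negative and 2 positive in SCNT animals, 3 negative and 2 positive in IVF-ET animals and 1 positive in AI animals. The shares over all tested probes were again 14.8%, 7.95% and 4.37% in these groups. The assembly factors BRIX1 (-0.25 ± 0.08, SE) and NSA2 (-0.29 ± 0.09) of the large subunit and IMP3 (0.24 ± 0.09) of the small one had the smallest p in SCNT animals. Of 11 genes that control translation of ribosomal protein messages, 0 passed in any group. At an unadjusted p under 0.05 there was 1 on each side in SCNT animals, 1 positive in IVF-ET and 0 in AI animals, beside the same background shares. TSC2, an inhibitor of mTOR, had the smallest p and was at 0.31 ± 0.11 in SCNT animals (limma adjusted p = 0.195). Of 63 mitochondrial ribosomal proteins, 1 passed in SCNT animals, MRPS6 at -0.50 ± 0.12 (limma adjusted p = 0.0491), with list medians of -0.08 in SCNT, -0.07 in IVF-ET and 5e-06 in AI animals. With 1.82% of all tested probes past the threshold there, a single call among 63 is near the background.

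Some stromal and epithelial markers also differed between the tissues in SCNT animals, beside the shift of the ribosomal proteins. Of 13 stromal markers, 5 passed on the negative side in SCNT animals, where 1.82% of all tested probes passed. In IVF-ET and AI animals 0 passed, as did 0% of all tested probes. At an unadjusted p under 0.05 there were 5 negative ones in IVF-ET and 4 positive ones in AI animals, beside 7.95% and 4.37% of all tested probes. The animals' stromal medians ranged from -0.96 to -0.26 in SCNT, from -0.67 to -0.20 in IVF-ET and from -0.03 to 0.61 in AI animals. Of 10 epithelial markers, 3 passed on the positive side in SCNT animals, with medians from 0.16 to 0.57 in SCNT, from 0.33 to 0.80 in IVF-ET and from -0.51 to 0.31 in AI animals. In IVF-ET animals 0 passed and 8 were positive at an unadjusted p under 0.05. Of 8 leukocyte, 4 endothelial, 5 smooth muscle and 1 red blood cell markers 0 passed in any group. At an unadjusted p under 0.05 they held 0 in SCNT or IVF-ET animals. In AI animals 1 endothelial and 3 smooth muscle markers were positive there. Of 5 trophoblast markers 0 passed in SCNT animals, with 2 at an unadjusted p under 0.05, beside 14.8% of all tested probes. The trophoblast medians were -0.01, -0.11, -1.14, -0.11 and 0.11 in SCNT replicates 1 to 5. In bulk tissue fewer cells of a type and less RNA per cell cannot be told apart, and the part of these markers in the ribosomal protein values was not tested.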

How the data were processed

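The authors deposited 1 table of log ratios of the 2 channels for 30 arrays, read here as log2 values. Their base, the order of the channels, the normalisation and the genome build are not given in the sources used here. Oligo-dT primed cDNA from total RNA was coupled to Cy3 or Cy5, per the labels' protocols, and dyes were exchanged between the arrays of an animal. All columns of the table were used (0 left unmapped), though the 2 arrays of IVF-ET replicate 3 entered only alternatives. No scanner intensities were used, so signal over background is unknown, and the number of animals limits the precision.

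Adjacent duplicate spots (27648) were averaged into 13824 probes. Arrays were centred on their median, each probe's dye effect was removed, and each animal's 2 arrays were averaged. Gene names came from the platform annotation, where 8645 probes had 1 symbol, 105 several and 5074 none, and gene IDs were matched in the RefSeq table of ARS-UCD2.0. Probes with values in all but 1 animal of each group, or in all, were tested (13818). Group means and their differences were tested with limma 3.58.1 (lmFit, eBayes; R 4.3.3) over all probes, two-sided, with Benjamini-Hochberg adjustment over all probes and a threshold of 0.05. The fit was tested on simulated data. The labels do not say how animals were chosen. Array numbers run by group, and the labels do not say whether they give the order of hybridisation. If they do, that order cannot be told apart from group.

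The members and the gene lists were chosen with earlier results of these data known. Genes named are members past the threshold, the 5 with the smallest p in each group and the 3 in each difference, a list of reference transcripts and members with textbook roles, paralogues, genes with several probes, and the members that follow the others most and least. A gene with several probes was represented by the probe with most values. The genes below -1 in SCNT replicate 5, those on 1 side in every animal and those without overlap were named after their values were seen. The alternatives covered the reading of the ratio, the AI sign, dye, centring, scaling, spots, probes, replicate 3 of IVF-ET and each animal in turn, and 3 were chosen after seeing the data: members without the 4 uncertain probes, AI replicates 1 and 5 left out together, and the first array of AI replicate 1 turned.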

Additional observations from a re-analysis of the deposited data

Results flagged for a closer look

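SCNT replicate 5 lay far from the other SCNT animals in 9 of 27 named genes examined for such values. Genes named above only for their low values in that animal, such as RPS2 (-5.38) and RPL29 (-4.21), were not among the 27. Of the 9, SCNT replicate 5 was at -4.20 for RPL19, -3.88 for RPS9, -2.82 for RPL15, -2.55 for RPL18, -2.50 for RPL9, -1.82 for RPL10, -1.55 for RPL14 and -0.93 for RPL7A, below the other 4 SCNT animals, and at 0.56 for RPS27L, above them. IVF-ET replicate 2 lay apart from the other IVF-ET animals with a large-subunit median of -0.23 and with RPL15 at -0.56. AI replicate 4 lay above the other AI animals with RPL35A at 1.50. These are 12 values out of 90 groups examined by Dixon's rule, which by chance picks out about 1 group in 20. The 90 are not independent, since 9 of the 12 values come from SCNT replicate 5 and share its arrays. Some of the genes were also chosen by their small p in SCNT animals, so the count is not set against chance.

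RPS18 differed between SCNT and AI pregnancies, by -0.64 as deposited, and the call was lost under 17 of 29 alternative settings.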

How the results depend on the processing

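Of 1036 values recomputed for 36 results under up to 29 settings, 975 kept their direction and their side of the threshold or moved by less than the spread between animals. Many settings cannot move a given value, so this count is no measure of robustness. Leaving out an AI or IVF-ET animal, for example, left the SCNT member median as it was. The 975 also include small values that changed sign, such as the AI member median, 0.03 as deposited and -0.03 with the AI sign turned. The reading of the ratio mattered most. With the values read as dye ratios the member medians were 0.088 in SCNT, 0.016 in IVF-ET, 0.024 for IVF-ET minus AI and 0.050 for SCNT minus AI. RPS18 (SCNT minus AI) was then at 0.0013, RPL14, RPL15 and RPS10 in SCNT animals at 0.34, 0.064 and 0.16, and RPL4, RPS25 and RPS6 in IVF-ET animals at 0.083, 0.18 and 0.20. For IVF-ET minus AI, RPS25 was at 0.30 and RPS3A at 0.10, and for SCNT minus IVF-ET, RPL18 was at 0.025 and RPS28 at -0.16. With the AI sign turned, the AI means of RPL23, RPL35A, RPS18, RPS3A and RPL37 were -0.42, -0.47, -0.42, -0.43 and 0.29. For SCNT minus AI, RPL23 was then at 0.12, RPL35A at 0.12 and RPS18 at 0.20, and RPS3A was at 0.17 for IVF-ET minus AI.

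The count of members past the threshold for SCNT minus AI was 1. It was 0 with the values read as dye ratios, the AI sign turned, IVF-ET replicate 3 kept with its second array turned, only the compared groups fitted, the second spot of each pair, or AI replicates 1 and 5 left out together. It was 2 with arrays scaled to 1 SD, RPL23 being the other gene. Leaving out 1 animal gave 0 to 1 members, while the count over all probes was between 5 and 269, and over all settings between 0 and 542, beside 131. In SCNT animals the count was 0, and 1 (RPL7A) with the first spot of each pair. The SCNT minus AI median was -0.17, and -0.27 with AI replicates 1 and 5 left out together; with 1 animal left out it lay between -0.25 and -0.16, and with the AI sign turned it was -0.15. Leaving out 1 animal kept the member median between -0.25 and -0.12 in SCNT, between -0.16 and -0.10 in IVF-ET and between -0.01 and 0.06 in AI animals. The cause of these changes was not tested. No paired analysis was possible because replicate numbers name different animals in each group.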

Other observations

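Measured by array rather than by animal, the members of SCNT replicate 5 lay on 1 side on both arrays for 49 of 63 probes, the highest share among the 14 animals (77.8%). In the other animals that share lay between 37.9% and 66.1%, with the lowest in AI replicate 3. AI replicate 4 had 42 of 63 members measured on both arrays, the fewest of any animal, and it held the highest values of RPL35A (1.50) and RPS3A (1.19). In that animal RPL35A had a value on the second array only, and RPS3A on both.

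IVF-ET replicate 3, which entered only alternatives, had member medians of -0.01 and -0.06 on its 2 arrays. Over all probes these arrays correlated at r = -0.525 and 0.373 with the other IVF-ET animals, and over members at r = -0.255 and 0.266.

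Of the 5 probes that list a ribosomal protein symbol after another gene, which are no members, the SCNT means lay between -0.38 and -0.04 and the IVF-ET means between -0.43 and -0.05.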
